A study of Mus musculus with 231 samples.

Results

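The 4 mature forms of miR-221 and miR-222 were followed in mouse blood during the development of leukemia. The members were the rows named mmu-miR-221-3p, mmu-miR-221-5p, mmu-miR-222-3p and mmu-miR-222-5p, which are 4 of the 1863 mature miRNAs in the training count table. They were selected by name rather than by a measured value, but with earlier results of these data known. Small RNA was sequenced from PBMC (mononuclear cells of peripheral blood) of mice of the strain C57BL/6 carrying the conditional Cbfb-MYH11 fusion gene (CM; Cbfb56M/+/Mx1-Cre, genotype label CHW) and of littermates described as without the transgene (Ctrl; labels HW, CW or WT, which are not explained). Cbfb-MYH11 is the mouse form of the inv(16) fusion of acute myeloid leukemia, and Mx1-Cre is driven by an interferon-inducible promoter that is active in many tissues. All mice of both arms received poly(I:C) at 14 mg/kg for 7 doses, starting at an age of 6 to 8 weeks. The training cohort had 7 CM mice (4 female, 3 male) with 53 libraries and 7 Ctrl mice (2 female, 5 male) with 76 libraries, labelled month 0 to month 10, and the validation cohort had 10 CM mice with 60 libraries and 6 Ctrl mice with 42. CM mice 3338 and 3357 were last sampled at month 4, mouse 3341 at month 6, mouse 3334 at a time labelled T6p5 (read as month 6.5), mouse 3336 at month 7, mouse 3370 at month 9 and mouse 3368 at month 10.

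MicroRNAs are cut from a hairpin precursor whose arms give a 5p and a 3p mature form, usually with one arm much more abundant. Bases 2 to 8 of the mature form, the seed, pair with the target mRNA. The 3p forms of miR-221 and miR-222 are known to repress translation of Kit, the receptor tyrosine kinase for stem cell factor on hematopoietic stem and progenitor cells, and of the cell cycle inhibitor Cdkn1b. Their decline during erythroid differentiation is known to relieve this repression of Kit. Kit mRNA was not part of the measurements analysed here.

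The mature sequences are shown because the 3p forms share a seed, and thus a set of possible targets, whereas the 5p form does not. Capitals mark bases 2 to 8, and the sequences are those of RefSeq on build GRCm38.p6, which held 3 of the 4 members.
mmu-miR-221-3p: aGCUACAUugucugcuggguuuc
mmu-miR-222-3p: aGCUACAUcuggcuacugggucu
mmu-miR-221-5p: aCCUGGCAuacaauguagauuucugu
mmu-miR-1928: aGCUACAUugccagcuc

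The first 8 bases of miR-221-3p and miR-222-3p were identical, and 11 of their 23 positions carried the same base when both were aligned at base 1. One other mature miRNA in the table, mmu-miR-1928, had the same bases 2 to 8. It lies at chr1:74206562-74206578 on the minus strand, and had at most 2 counts in any training library, so the seed was represented in these libraries by the pair of 3p forms.

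The hairpins lie beside each other on the X chromosome, both on the minus strand and 504 bases apart. Mir221 spans chrX:19146294-19146388, with miR-221-3p at chrX:19146307-19146329 and miR-221-5p at chrX:19146344-19146369. Mir222 spans chrX:19146893-19146971, with miR-222-3p at chrX:19146901-19146923. The RefSeq table listed no other gene over this stretch, and the nearest listed neighbour was the long non-coding RNA gene Gm14636, 9.5 kb away on the side of Mir222. In the hairpins below, printed to show how the arms are placed, capitals mark the mature forms given in the table.
Mir221: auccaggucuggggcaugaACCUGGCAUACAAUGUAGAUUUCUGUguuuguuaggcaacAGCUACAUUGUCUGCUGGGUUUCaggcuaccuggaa
Mir222: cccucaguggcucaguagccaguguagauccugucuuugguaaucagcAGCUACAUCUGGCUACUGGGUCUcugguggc

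Training libraries held between 1792809 and 7958411 counts. Levels are given as CPM, that is, counts relative to a library size of 1e+06 that TMM (a trimmed mean over miRNAs) had adjusted, computed from the deposited counts unless the deposited CPM is named. The lymphocyte miRNA miR-150-5p was at 6245 CPM or more in every training library, and the red cell miRNA miR-451a, which marks erythroid RNA in the preparations, ranged from 6285 to 376072 CPM. In the titles, consecutive library numbers run on from mouse 3335 to mouse 3334 and from mouse 3334 to mouse 3335, so the main comparisons are also given without them. In bulk samples, fewer cells of a type and less RNA per cell cannot be told apart.

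MiR-221-3p was the most abundant of the 4 forms by far. Its level ranged from 2568 to 35308 CPM over all training libraries, with a median of 11598 CPM and counts of 8301 to 174917, and it ranked 18 of 1863 miRNAs by mean CPM. MiR-222-3p ranged from 422 to 5888 CPM with a median of 1924 CPM and ranked 64. The 5p forms were far lower, miR-221-5p at 34.03 to 433 CPM (median 121.4 CPM, rank 162) and miR-222-5p at 4.02 to 44.3 CPM (median 15 CPM, rank 292). The counts of miR-222-5p ranged from 13 to 215 per library, so its values carry the most counting error. Within a library, miR-221-3p made up 72.99% to 91.7% of the counts of the 4 forms and miR-222-3p 7.78% to 26.5%. The ranges of the 4 forms therefore followed the order miR-221-3p, miR-222-3p, miR-221-5p and miR-222-5p, and neighbouring median levels lay several times apart.

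The deposited CPM of the same libraries gave nearly the same level for both arms of miR-221 but a lower one for both arms of miR-222. The deposited CPM was 1.07 times the CPM from the counts for miR-221-3p and 1.03 times for miR-221-5p (medians over all training libraries). For miR-222-3p this median was 0.480, with a range of 0.287 to 0.892, and for miR-222-5p it was 0.528. The ratio of miR-221-3p to miR-222-3p was therefore 6.00 in the counts and 13.7 in the deposited CPM (medians). Both tables come from the same reads, and absolute levels of miR-222 depend on which is used.

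The forms moved together across libraries. Over the 53 CM and 76 Ctrl training libraries, which share 14 mice and a scaling step, Pearson's r of log2(CPM + 1) was 0.90 between the arms of miR-221 and 0.89 between the 3p forms of the neighbouring hairpins. It was lowest, at 0.63, between the arms of miR-222. Among 331 miRNAs with a mean of 10 CPM or more, the miRNAs most like miR-221-3p were miR-221-5p, miR-222-3p (r = 0.89), miR-99b-5p (r = 0.82), miR-222-5p (r = 0.82) and miR-125a-5p (r = 0.81). Those most like miR-222-3p were miR-221-3p, miR-221-5p (r = 0.79), miR-676-3p (r = 0.79), miR-99b-5p (r = 0.74) and miR-1968-5p (r = 0.73). These correlations are descriptions over repeated libraries of the same mice.

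**Figure D1:**
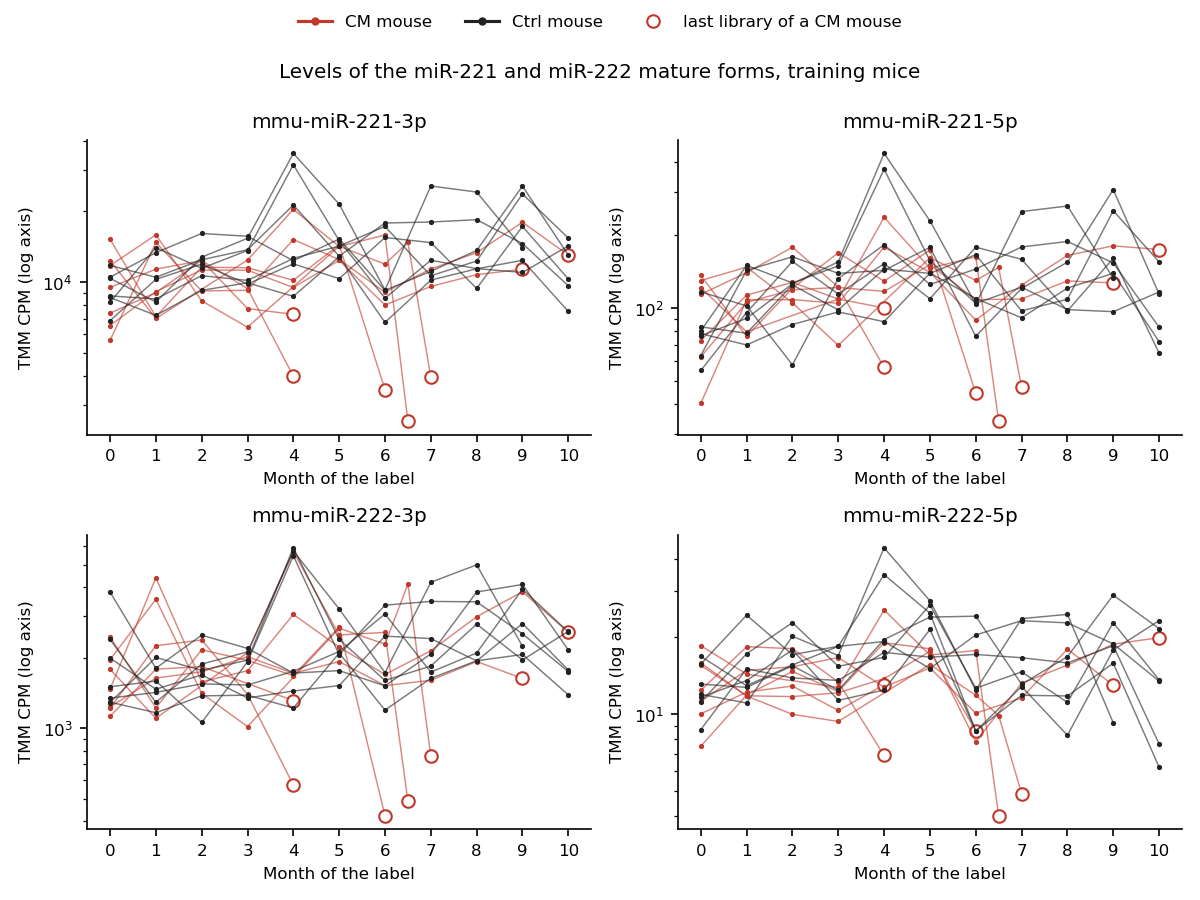
Level of each mature form (TMM CPM, log axis) against the month of the label, with a line for each of the 14 training mice, CM in red and Ctrl in black. Open circles mark the last library of each CM mouse, and for miR-221-3p those of mice 3334, 3341, 3336 and 3338 lie between 2568 and 3988 CPM, under the lowest Ctrl library at 6754 CPM.

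The first comparison asked whether CM and Ctrl mice differed in these miRNAs at a given month. No member was called in any month from 0 to 6 (edgeR quasi-likelihood test, Benjamini-Hochberg adjusted over all miRNAs tested, threshold 0.05), and 2 values had an unadjusted p under 0.05, both for miR-222-5p. DESeq2 called no member at any of these months either, and neither did the test without mice 3334 and 3335. The share of all miRNAs tested that was called was 0.209% for month 0, 27.5% for month 1, 13.5% for month 2 and 22.0% for month 3. It was 0.837% for month 4, 0.0% for month 5 and 0.0% for month 6. In the last of these, 21.6% of miRNAs (month 5) and 6.98% (month 6) had an unadjusted p under 0.05, and DESeq2 called 21 and 0 miRNAs.

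At month 0, the CM libraries had 5659, 6548, 7392, 9521, 11767, 12373 and 15264 CPM of miR-221-3p, and the Ctrl libraries had 6864, 8224, 8617, 8751, 10397, 10511 and 11792 CPM. The arms overlapped over the whole Ctrl range, with a log2 difference of 0.05 ± 0.22 (standard error; adjusted p = 0.950). The log2 differences of the other forms at month 0 were 0.27 for miR-221-5p, -0.32 for miR-222-3p and 0.01 for miR-222-5p, with adjusted p-values from 0.669 to 0.981.

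At month 1, miR-222-3p was at 1102, 1220, 1636, 1785, 2249, 3551 and 4390 CPM in CM mice and at 1163, 1288, 1421, 1466, 1589, 1803 and 2004 CPM in Ctrl mice. Mice 3336 (3551 CPM) and 3368 (4390 CPM) stood well above the Ctrl range, mouse 3338 (2249 CPM) slightly above it, and the other CM mice within or below it. The log2 difference was 0.54 ± 0.29 (adjusted p = 0.189). From whole reads recovered from the deposited CPM it was 1.17 (adjusted p = 0.0246, an alternative added after the data were seen), and over the alternatives it was 0.36 to 1.17 with adjusted p-values from 0.0246 to 0.376. The summed level of the 5 erythroid miRNAs listed (miR-451a, miR-144-3p, miR-144-5p, miR-486a-5p and miR-486b-5p) in those libraries was 621976 CPM in mouse 3336 and 422853 CPM in mouse 3368, against 28288 to 90885 CPM in the other 12 libraries of month 1. Its part in the miR-222-3p difference was not tested. MiR-221-3p, from the same cluster, differed by 0.01 ± 0.23 in log2 at month 1 (adjusted p = 0.969).

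The change from month 0 to month 1 was then compared between the arms. MiR-222-3p rose in 5 of 7 CM mice, with a median log2 change of 0.67 and a range of -1.01 to 1.58, and in 3 of 7 Ctrl mice, with a median of -0.15 and a range of -1.08 to 0.64. The difference between these changes was 0.99 ± 0.42 in log2 and did not pass (interaction term, adjusted p = 0.124, where 8.46% of miRNAs were called). Without mice 3334 and 3335 it was 1.18 (adjusted p = 0.0781), and with the mouse as a block it was 0.75 (adjusted p = 0.316). No member was called within either arm, where 12.7% of miRNAs were called in CM mice and 0.63% in Ctrl mice. All within-arm values of members had an unadjusted p over 0.05, and no second tool was run for these contrasts.

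All 4 forms were lower in CM than in Ctrl mice at month 4, as they were at months 3 and 6, but with wide spread. MiR-221-3p was at 3988, 7305, 9504, 10201, 15196 and 20402 CPM in CM mice and at 8714, 11981, 12352, 12635, 21308, 31591 and 35308 CPM in Ctrl mice. The values of 3988 and 7305 CPM are those of the last libraries of mice 3338 and 3357. Ctrl mice 3349, 3346 and 3350 and CM mouse 3334 stood above the rest of their arms. For miR-222-3p these 4 libraries were at 5453, 5888, 5711 and 5679 CPM, and the other 9 libraries of that month at 571 to 3060 CPM. The log2 difference at month 4 was -0.73 ± 0.40 for miR-221-3p (adjusted p = 0.368), -0.61 ± 0.40 for miR-221-5p, -0.45 ± 0.53 for miR-222-3p and -0.57 ± 0.35 for miR-222-5p, none of them called. With mice 3334 and 3335 left out it was -1.17, -1.02, -1.15 and -0.93 in the same order, with adjusted p-values from 0.137 to 0.255.

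Averaging a mouse over months 1 to 6 reduces the spread between its libraries. The mean log2(CPM + 1) of miR-221-3p was 13.31 ± 0.23 (SD, n = 7) in CM mice and 13.62 ± 0.26 (SD, n = 7) in Ctrl mice. As geometric means, the CM mice were at 8522, 8882, 8917, 10149, 10778, 11370 and 13204 CPM and the Ctrl mice at 8917, 11509, 11924, 13442, 14381, 14404 and 15004 CPM. Most Ctrl mice lay above most CM mice, but mouse 3335 was among the lowest and mouse 3334 was the highest of the CM mice, which are the mice whose labels are in doubt. The log2 difference was -0.32 (exact two-sided permutation test over mice, p = 0.0367, adjusted p = 0.0948). Leaving out both mice gave -0.46, which passed (exact permutation test, adjusted p = 0.0135) where 202 of 612 miRNAs were called, and it also passed without mouse 3334 alone (-0.38) and without mouse 3335 alone (-0.40).

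MiR-222-5p, the least abundant form, was called in this comparison. Its mouse means were 11.53, 12.04, 12.31, 13.26, 13.39, 13.93 and 16.93 CPM in CM mice and 13.59, 15.49, 16.68, 17.36, 17.96, 19.66 and 19.70 CPM in Ctrl mice. The arms overlapped only through mice 3334, 3370 and 3335, and the log2 difference was -0.34 (exact permutation test, adjusted p = 0.0241). In the same comparison 31.9% of all 612 miRNAs were called, so a call for 1 of 4 members is near that background. The call was lost with the deposited CPM (-0.38, adjusted p = 0.0598), without a filter (-0.34, adjusted p = 0.0599), over months 1 to 4 (-0.33, adjusted p = 0.0652) and without the last CM libraries (-0.29, adjusted p = 0.0532), all by the exact permutation test. MiR-221-5p differed by -0.14 (adjusted p = 0.332) and miR-222-3p by -0.07 (adjusted p = 0.744). MiR-221-5p also passed without mice 3334 and 3335 (-0.25, adjusted p = 0.0323). For miR-222-3p the direction depended on the table, with a log2 difference of 0.26 in the deposited CPM (adjusted p = 0.228). All 4 values from the counts were below 0, against 51.96% of all miRNAs tested, but the forms are correlated and are not independent.

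**Figure D2:**
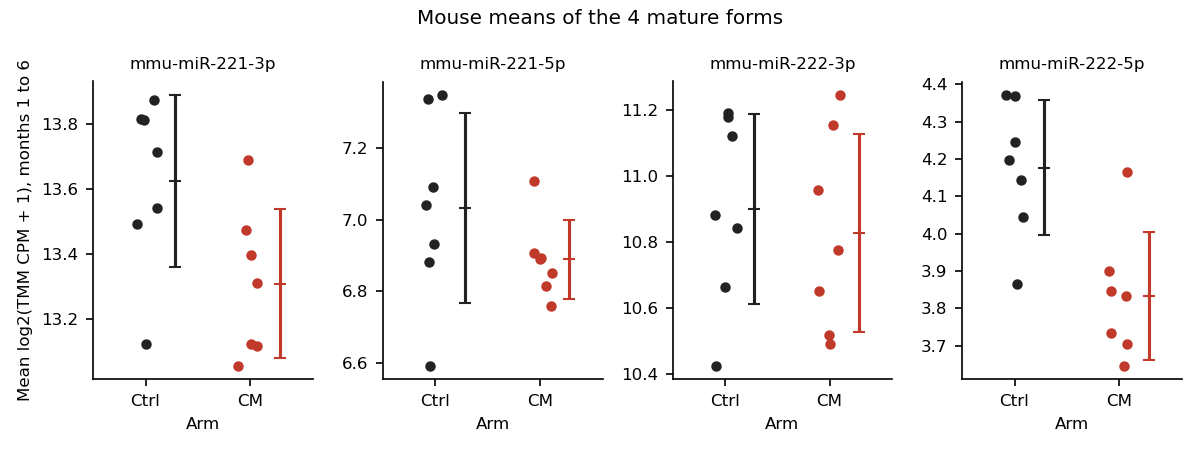
Mean log2(TMM CPM + 1) over months 1 to 6 of each training mouse (dots), with the arm mean and SD as a bar beside them, for the 4 forms (n = 7 per arm). The arms overlap in every panel, and the difference passed the adjusted test for miR-222-5p (-0.34) only, with all mice included.

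Slopes over months 0 to 6 asked whether the forms drifted apart with time. MiR-221-3p had a monthly log2 change of -0.03 ± 0.15 in the CM and 0.09 ± 0.07 in the Ctrl arm (mean and SD over 7 mice each). The difference of slopes was -0.11 for miR-221-3p, -0.10 for miR-221-5p, -0.11 for miR-222-3p and -0.08 for miR-222-5p, and none passed (exact permutation test, adjusted p of 0.613 to 0.651). Leaving out mice 3334 and 3335 gave -0.15, -0.12, -0.15 and -0.10, with none passing either. Of all 612 miRNAs tested, 0.0% were called and 51 had an unadjusted p under 0.05. Over all months, where CM mice cover different spans, 21.4% were called, and miR-222-3p passed (-0.13, exact permutation test, adjusted p = 0.0392). The largest downward slopes of miR-221-3p were those of CM mice 3338 (-0.28) and 3341 (-0.16), both of which ended within this window.

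The ratio between the 3p forms differed between the arms more plainly than either level. It was taken within a library as log2 of the counts of miR-221-3p over those of miR-222-3p, so it needs no scaling between libraries. The CM mice had mean log2 ratios over months 1 to 6 of 2.32, 2.44, 2.44, 2.47, 2.53, 2.57 and 2.60, and the Ctrl mice of 2.64, 2.68, 2.69, 2.70, 2.70, 2.83 and 2.83. Every CM mouse lay below every Ctrl mouse, although the gap between the nearest mice, 3341 and 3346, was small. The means were 2.48 ± 0.10 and 2.72 ± 0.08 (SD, n = 7 each), or 5.59 against 6.61 miR-221-3p counts per miR-222-3p count. The difference was -0.24 (exact two-sided permutation test, p = 0.000583, the smallest value that 7 against 7 mice can give, and 0.00175 adjusted over the 3 ratios tested). Of the ratios of miR-221-3p to each of the 611 other miRNAs tested, 3.93% did not overlap between the arms and 38.3% had an unadjusted permutation p under 0.05. Of the single mouse means 10.8% did not overlap.

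The deposited CPM gave the same order with a wider gap. There the log2 ratio averaged 3.43 ± 0.15 over the CM and 3.99 ± 0.12 over the Ctrl arm, with a highest CM mouse at 3.57 and a lowest Ctrl mouse at 3.85 (difference -0.56, exact permutation test, p = 0.000583). The share of other ratios without overlap was not counted for the deposited CPM. With mice 3334 and 3335 left out the arms still did not overlap, with a difference of -0.60 in the deposited CPM and -0.24 in the counts (exact permutation test, p = 0.00216 for each, the smallest value that 6 against 6 mice can give). Leaving out the last CM libraries gave -0.27 in the counts (exact permutation test, p = 0.000583). The lower ratio in CM mice was not accompanied by a called change of either form, with log2 differences of -0.32 for miR-221-3p and -0.07 for miR-222-3p.

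By month, a comparison added after the data were seen, the difference of the log2 ratio was 0.23 at month 0, where the arms overlapped (exact permutation test, p = 0.379). For months 1 to 6 in turn it was -0.41, -0.31, -0.29, -0.24, -0.25 and 0.08. Adjusted over the 7 months, months 1, 2, 3 and 5 passed (exact permutation test, adjusted p = 0.00816, 0.0194, 0.00816 and 0.0194). At month 3 the CM libraries ranged from 2.32 to 2.75 and the Ctrl libraries from 2.74 to 2.87. In the deposited CPM the arms did not overlap at months 1, 2 and 3, with differences of -0.87, -0.71 and -0.62 (exact permutation test, adjusted p = 0.00136 for each), and months 4 and 5 also passed (-0.51 and -0.52, exact permutation test, adjusted p = 0.0441 and 0.0133). How many other ratios were without overlap was not counted by month. Month 6 did not pass in either table, with a difference of -0.12 in the deposited CPM. With mice 3334 and 3335 left out, months 1, 2, 3 and 5 passed in both tables and month 4 in neither (-0.09 in the counts and -0.36 in the deposited CPM).

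Marker miRNAs of some other cell types moved with this ratio, erythroid ones most closely over all libraries. Over all training libraries, r between the log2 ratio and the log2 summed level of the 5 erythroid miRNAs was -0.61, with -0.61 within CM libraries and -0.61 within Ctrl libraries. The lowest ratio among the Ctrl libraries, 1.46 in mouse 3342 at month 0, was in a library with 260882 CPM of erythroid miRNAs, the highest of month 0. The geometric mean of the erythroid sum over months 1 to 6 ranged from 48188 to 137823 CPM in CM mice and from 47542 to 75316 CPM in Ctrl mice. At month 3 it was 47917 to 97017 CPM in CM libraries and 37370 to 62706 CPM in Ctrl libraries, which overlap. Without mice 3334 and 3335 r over all libraries was -0.62. The other marker lists had r of -0.30 (miR-126a), 0.35 (lymphocyte), 0.34 (progenitor) and -0.12 (vessel wall), and that of the myeloid list was near 0. For miR-126a, r was -0.62 within Ctrl libraries and 0.09 within CM libraries. Its mouse means over months 1 to 6, 289 to 1386 CPM in the CM and 154 to 239 CPM in the Ctrl arm, did not overlap. The authors report that the fusion gene raises miR-126, so in CM mice this list is not a marker of cell type alone. The part of erythroid RNA, or of any other cell type, in the ratio was not tested.

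**Figure D3:**
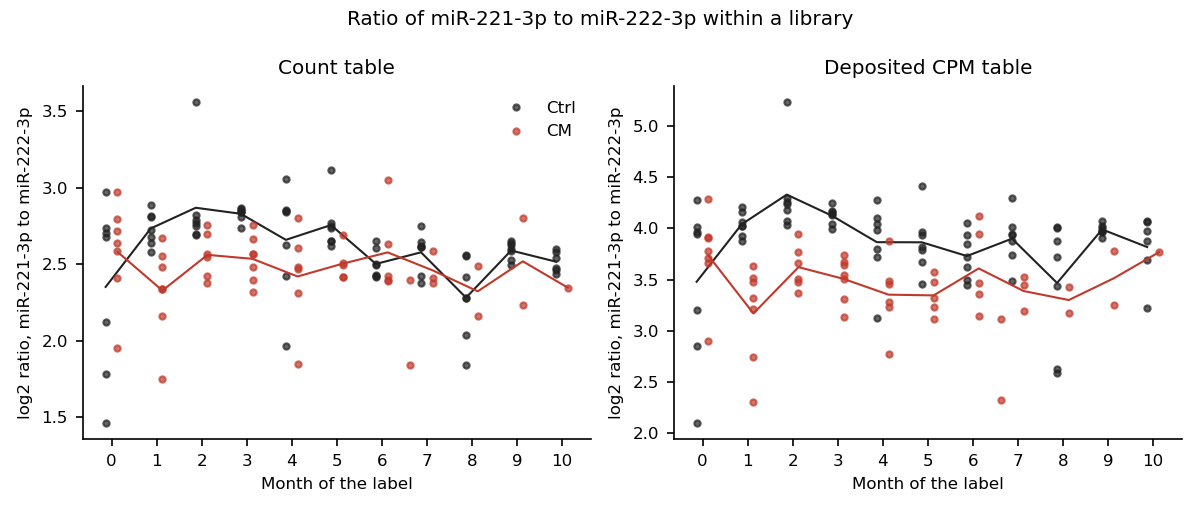
The log2 ratio of miR-221-3p to miR-222-3p in each training library against the month of the label, from the counts (left) and the deposited CPM (right), with CM in red, Ctrl in black and lines through the arm means. In the deposited CPM the CM libraries of months 1, 2 and 3 lie below all Ctrl libraries of the same month.

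The ratios between arms of a hairpin also differed. The log2 ratio of miR-221-3p to miR-221-5p was 6.43 ± 0.14 in CM and 6.60 ± 0.16 in Ctrl mice (difference -0.17, exact permutation test, p = 0.0472, adjusted over the 3 ratios 0.0472). This difference was -0.16 without the last CM libraries (exact permutation test, p = 0.0524 before adjustment) and -0.21 without mice 3334 and 3335 (exact permutation test, p = 0.0325). The difference in the log2 ratio of miR-222-3p to miR-222-5p was larger in size than that of the 3p ratio. This ratio was 7.09 ± 0.25 in CM and 6.80 ± 0.14 in Ctrl mice (difference 0.29, exact permutation test, p = 0.0227, adjusted 0.0341). It no longer passed when mice 3334 and 3335 were left out (0.25, exact permutation test, p = 0.0758). Leaving out the last CM libraries gave 0.36 (exact permutation test, p = 0.00291). In the deposited CPM the difference was 0.66 with no overlap of the arms (exact permutation test, p = 0.000583), and 0.70 with both mice left out (exact permutation test, p = 0.00216). No background share of other ratios was counted for this ratio, so its lack of overlap cannot be set against that of other miRNAs.

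In the last library of each CM mouse, miR-221-3p was at 2568 CPM in mouse 3334, 3494 CPM in mouse 3341, 3947 CPM in mouse 3336, 3988 CPM in mouse 3338, 7305 CPM in mouse 3357, 11365 CPM in mouse 3370 and 13041 CPM in mouse 3368. The first 4 of these were the lowest of all training libraries and lay below every Ctrl library, of which the lowest had 6754 CPM. With mouse 3334 left aside, the other 3 libraries were still the lowest. The same 4 libraries were the lowest for miR-222-3p, at 487, 422, 758 and 571 CPM against a lowest Ctrl library of 1057 CPM. How many other miRNAs had these libraries outside the Ctrl range was not counted. In mice 3370 and 3368, with libraries up to months 9 and 10, all 4 forms stood within the range of Ctrl libraries.

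The fall came between the last library and the one before. In mouse 3334, miR-221-3p went from 15880 CPM at month 6 to 2568 CPM at T6p5, a log2 change of -2.63. The change to the last library was -2.05 in mouse 3341, -1.90 in mouse 3336 and -1.24 in mouse 3338, against -0.08 in mouse 3357, -0.47 in mouse 3368 and 0.08 in mouse 3370. Among 69 steps between consecutive libraries of Ctrl mice the log2 change ranged from -1.21 to 1.47, and among 39 earlier steps of CM mice from -1.10 to 1.38. Most Ctrl mice also fell at their own last step, by less. The change there was -0.72 in mouse 3335, -0.62 in 3339, -0.74 in 3340, -0.97 in 3342, -0.59 in 3349 and -0.79 in 3350. In mouse 3346 it was 0.37. For miR-222-3p the change was -2.40, -2.68, -2.44 and -1.29 in mice 3334, 3341, 3336 and 3338, and for miR-221-5p it was -2.25, -1.96, -1.64 and -1.10. The lowest Ctrl steps of these forms were -1.41 and -1.43, so the changes in mouse 3338 lay within the Ctrl range. For miR-222-5p the change was -2.14 in mouse 3334, below the lowest Ctrl step of -1.52, and -1.03, -1.01 and -0.95 in the other 3 mice, within the Ctrl range, where 7 of 69 steps were below -1. This form reached 13 counts in mouse 3334 and 17 in mouse 3336. The deposited CPM of miR-221-3p had the same 4 last libraries as its 4 lowest, at 3299, 4178, 4630 and 5091 CPM. In that measure the change of miR-221-3p in mouse 3338 was -0.97, within the Ctrl range. Ctrl mouse 3350, for example, changed by -1.16 from month 5 to month 6.

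Tested over all 7 mice, no member was called between the last CM library and month 0. This test did not pair the libraries of the same mouse. The log2 difference was -0.52 ± 0.34 for miR-221-3p (edgeR, adjusted p = 0.236), -0.15 ± 0.37 for miR-221-5p, -0.47 ± 0.36 for miR-222-3p and -0.30 ± 0.32 for miR-222-5p, where 39.0% of miRNAs were called. DESeq2 called no member either, and no member had an unadjusted p under 0.05. Mouse 3368 decided this outcome, as its month 0 library was low (5659 CPM) and its last library higher (13041 CPM). Without it the difference was -0.90 for miR-221-3p (adjusted p = 0.0328) and -0.87 for miR-222-3p (adjusted p = 0.0402), and both were called, as were 52.3% of miRNAs. Without mouse 3334 it was -0.33 for miR-221-3p (adjusted p = 0.495).

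Other miRNAs stood apart in the last libraries as well. MiR-126a-3p, known from endothelial and hematopoietic stem cells, was at 2552 CPM in mouse 3334, 4584 CPM in mouse 3341, 1412 CPM in mouse 3336, 1861 CPM in mouse 3338 and 1377 CPM in mouse 3357. In mice 3368 and 3370 it was at 218 and 464 CPM. MiR-126a-3p and miR-126a-5p, the list used for endothelial cells, summed to 2178 to 7544 CPM in the last libraries of those first 5 mice, against 35.8 to 875 CPM over all Ctrl libraries. The 2 vessel wall miRNAs miR-143-3p and miR-145a-5p summed to 19.9 to 286 CPM in the same 5 libraries and to 172 to 1541 CPM over Ctrl libraries. Mouse 3357 thus had high miR-126a with miR-221-3p near its own month 0 level (7305 against 7392 CPM). This level was less low than in the other 4 mice and above the lowest Ctrl library of all months (6754 CPM). It was still below the lowest Ctrl library of month 4 (8714 CPM). The summed erythroid level of the 7 last libraries was 29305 to 83105 CPM, within the Ctrl range of 13146 to 460048 CPM, and the summed lymphocyte level was 9251 to 57451 CPM against 9656 to 91471 CPM. The myeloid sum was 2016 to 6308 CPM against 1509 to 27361 CPM, and the progenitor sum 2577 to 12367 CPM against 2410 to 22272 CPM. The lowest Ctrl values of both sums were from month 2. In the other months the lowest Ctrl values were 2900 CPM (myeloid) and 4340 CPM (progenitor). The last library of mouse 3334 lay below these for both sums. That of mouse 3341 did so for the myeloid sum (2762 CPM) and that of mouse 3336 for the progenitor sum (3976 CPM). Between the last library and the one before, the progenitor sum went from 12175 to 2577 CPM in mouse 3334, from 12742 to 5202 CPM in mouse 3341, from 5443 to 3976 CPM in mouse 3336 and from 12742 to 7871 CPM in mouse 3338. The progenitor sum thus fell in the same 4 mice as miR-221-3p, and slightly in mouse 3370 (10056 to 9539 CPM). The erythroid sum fell in these 4 mice, but also in mouse 3357 (84756 to 66152 CPM). It fell as well in mouse 3368 (141610 to 83105 CPM) and mouse 3370 (226768 to 62334 CPM). The vessel wall sum fell in the 4 mice and also in mice 3357 and 3370. The lymphocyte sum fell in mice 3334 (25482 to 9251 CPM), 3341 (26423 to 19350 CPM) and 3338 (23420 to 10776 CPM). It rose in mice 3336, 3357, 3368 and 3370. The myeloid sum fell in mice 3334 (3828 to 2016 CPM), 3341 (6073 to 2762 CPM) and 3338 (8508 to 4644 CPM). It fell slightly in mice 3357 and 3368 and rose in mice 3336 and 3370. None of the markers in these lists was at 0 in any training library. The part of cell composition in the fall was not tested.

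**Figure D4:**
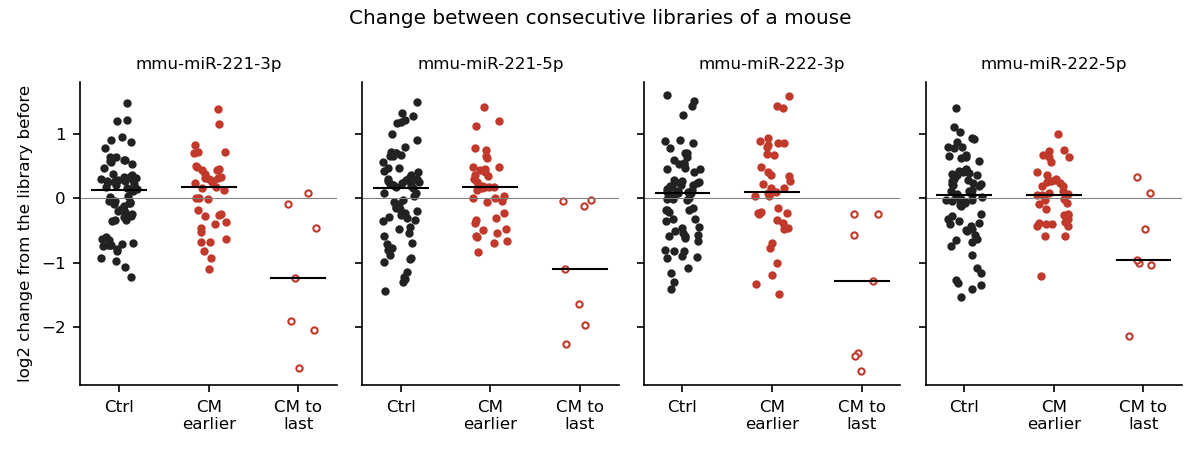
Log2 change of each form from one library of a mouse to the next, for all steps of Ctrl mice (n = 69, black), for CM steps before the last library (n = 39, filled red) and for the step to the last CM library (n = 7, open red), with a line at each median. For miR-221-3p, 4 of the 7 open points lie below the lowest Ctrl step of -1.21, that of mouse 3338 only slightly (-1.24).

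Between months 0 and 6, 1 member rose in Ctrl mice. MiR-221-5p was at 55.1, 63.4, 76.6, 78.1, 80.2, 83.3 and 116.2 CPM at month 0 and at 76.2, 103.4, 104.1, 109.1, 144.2, 165.4 and 177.6 CPM at month 6, and it rose in 7 of 7 mice. The log2 difference was 0.66 ± 0.19 (edgeR, adjusted p = 0.0223), and it was 0.66 with the mouse as a block (adjusted p = 0.0452) and 0.73 without mouse 3335 (adjusted p = 0.0479). Its partner arm miR-221-3p differed by 0.37 ± 0.21 (adjusted p = 0.241). In this comparison 20.5% of miRNAs were called and of the members 1 of 4.

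Since the hairpins lie on the X chromosome, sexes were compared at month 0 with the arm as a covariate. Female mice had a log2 difference of 0.40 ± 0.20 for miR-221-3p and 0.52 ± 0.24 for miR-221-5p (edgeR, adjusted p = 0.788 for both), 0.10 ± 0.30 for miR-222-3p and 0.18 ± 0.22 for miR-222-5p. Of all miRNAs tested, 0.0% were called and 25 had an unadjusted p under 0.05, and no second tool was run for this contrast. In the mouse means over months 1 to 6, miR-221-3p was at 13.17 in CM and 13.84 in Ctrl females (4 and 2 mice). In males it was nearly the same in both arms, at 13.49 and 13.54 (3 and 5 mice), with Ctrl males from 13.12 to 13.81. MiR-222-3p was lower in CM females (10.65 against 11.16) but higher in CM males (11.06 against 10.80). None of these differences was tested within a sex.

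The validation cohort gave a usable depth at its point 5 only, with 1645456 to 5445215 reads per library recovered from the deposited CPM. There miR-221-3p was at 44824, 50270, 58383, 69240, 98104 and 109354 deposited CPM in CM mice and at 71655, 72265, 120836, 123478, 127353 and 142942 in Ctrl mice. Of the 6 CM libraries, 4 lay below the lowest Ctrl library, and the other 2, from the female CM mice, lay within the Ctrl range. This table was scaled separately from the training tables, so levels are not compared between cohorts. The difference on the log2(CPM + 1) scale was -0.64 ± 0.30 for miR-221-3p (limma-trend, adjusted p = 0.855), -0.40 ± 0.29 for miR-221-5p, -0.70 ± 0.37 for miR-222-3p and -0.81 ± 0.41 for miR-222-5p. With sex as a covariate the value for miR-221-3p was -0.52 (adjusted p = 0.998). None was called, with 0.0% of all 930 miRNAs called, 54 of them at an unadjusted p under 0.05, and no call by edgeR on the recovered reads.

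The ratio of miR-221-3p to miR-222-3p at point 5, a comparison added after the data were seen, was 3.50 ± 0.45 in CM and 3.44 ± 0.33 in Ctrl mice in log2 (SD, n = 6 each). The difference of 0.06 had the opposite sign to the training cohort and did not pass (exact permutation test, p = 0.807). The log2 ratio of miR-221-3p to miR-221-5p differed by -0.24 (exact permutation test, p = 0.262) and that of miR-222-3p to miR-222-5p by 0.12 (exact permutation test, p = 0.658).

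**Figure D5:**
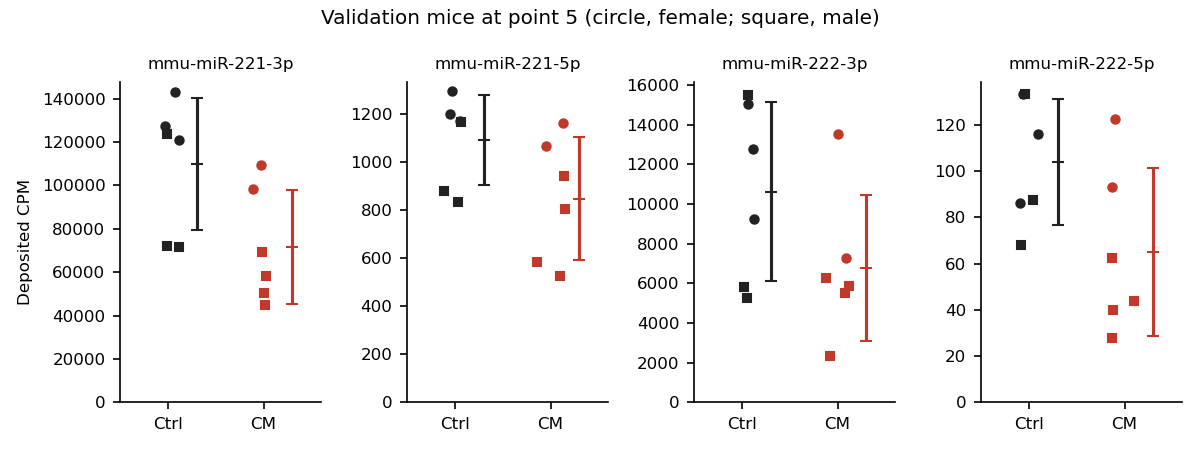
Deposited CPM of the 4 forms in the 12 validation libraries of point 5, with a circle for each female and a square for each male mouse, and the mean and SD of the arm beside them (n = 6 per arm). The arms overlap in all 4 panels, with miR-221-3p at 44824 to 109354 CPM in CM mice and 71655 to 142942 CPM in Ctrl mice.

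No comparison was made at the other validation points. The libraries there were shallow, and miR-5099 had the highest level in 90 of 90 of them and in 0 of 12 libraries of point 5. MiR-221-3p had 0 to 44 reads per library, with a median of 2, and was above 0 in 74 of 90 libraries. MiR-222-3p was listed at 0 in all 90 libraries, for a cause that was not tested, whereas miR-222-5p was above 0 in 31 of them with up to 8 reads. At point 5 the order was the reverse, with a median of 108.3 units of miR-222-3p for each of miR-222-5p. At point 4 miR-222-5p was above 0 in 8 of 9 CM and 5 of 6 Ctrl libraries, and at point 6 in 6 of 6 and 4 of 6.

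Of the 5 other miRNAs listed as Kit regulators, miR-193b-3p, miR-34a-5p and miR-218-5p passed the filter in training comparisons, and miR-193a-3p and miR-494-3p had medians of 0.397 and 0.206 CPM. MiR-34a-5p, a p53-responsive miRNA, was lower in CM mice, with a log2 difference of -1.10 ± 0.11 in month 1 (edgeR, adjusted p = 1.05e-05) and -1.11 ± 0.17 in month 2 (adjusted p = 0.00201). MiR-218-5p was higher in CM mice at month 1 (1.90 ± 0.58, adjusted p = 0.0256) and miR-193b-3p at month 3 (0.77 ± 0.26, adjusted p = 0.0414). These are 2 of 3 tested in month 1, 1 of 3 in month 2 and 1 of 3 in month 3, where 27.5%, 13.5% and 22.0% of all miRNAs were called. At months 0, 4, 5 and 6, 0 of the 3 passed, with an unadjusted p under 0.05 in 3 of the 12 cases and no call by DESeq2. For miR-34a-5p the log2 difference was already -0.44 ± 0.14 at month 0 (edgeR, adjusted p = 0.256), and it was 1.34 ± 0.65 at month 4 (adjusted p = 0.313). Its change from month 0 to month 1 differed between the arms by -0.55 ± 0.17 (edgeR interaction term, adjusted p = 0.0490). In that test 1 of the 3 and 8.46% of all miRNAs were called. In the last CM library against month 0, miR-193b-3p rose by 2.29 ± 0.64 (adjusted p = 0.0109) and miR-34a-5p by 1.98 ± 0.51 (adjusted p = 0.00814), 2 of 3 tested, where 39.0% of all miRNAs were called and their median log2 difference was -0.06. Over the mouse means 1 of 3 was called, miR-34a-5p at -0.51 (exact permutation test, adjusted p = 0.0429), a share near the 31.9% of all miRNAs called.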

How the data were processed

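The deposited training file holds whole-number counts per mature miRNA, which the authors made with mirTOP, with settings not given in the sources used here. The authors' normalized tables hold TMM-scaled CPM, treated here as a signal, made with cutadapt, Bowtie and edgeR. The methods name build mm9 and the processing notes GRCm38, so coordinates come only from RefSeq on GRCm38.p6. Every value of these tables was a whole multiple of 1 read within 0.05 reads, except in 2 validation libraries for which no read size was recovered. Training totals were 1792809 to 7958411 counts (median 4437464), those of validation point 5 were 1645456 to 5445215 reads, and the other 88 validation libraries had 1744 to 76906 reads and were not compared. Intervals and limits from such reads would cover counting error only, since no molecular identifiers were used.

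From the counts, arms and times were compared with edgeR 4.0.16 (quasi-likelihood test, TMM, low counts filtered by filterByExpr), with Benjamini-Hochberg adjustment over all miRNAs tested and a threshold of 0.05. Point 5 was tested with limma-trend 3.58.1 on log2(CPM + 1), which understates changes of low miRNAs. Mouse means (months 1 to 6), slopes (months 0 to 6) and ratios (0.5 counts added to each side) were compared by exact two-sided permutation over mice. Alternatives included DESeq2 1.42.0, raw library sizes, no filter, sex, the G number of the labels (a number from 1 to 7 that is not explained), the deposited CPM, leaving out mice and the mouse as a block. The tests were checked on simulated data.

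Replicates are mice, and repeated libraries of a mouse are matched by the mouse number in the labels. The main edgeR tests between times did not pair them, and the mouse as a block was an alternative. The labels say that training libraries were prepared in randomized batches and validation libraries as they were collected. The members, lists and tests were chosen with earlier results of these data known. The named miRNAs are the 4 members, the 5 other listed Kit regulators, the marker lists and the 5 miRNAs most like each 3p member by r.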

Additional observations from a re-analysis of the deposited data

Results flagged for a closer look

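In 2 of 90 groups of member values, 1 mouse stood apart from its group by Dixon's criterion, which chance alone meets in about 1 in 20 groups. For miR-221-5p at month 2, CM mouse 3338 was at 177.5 CPM and the next of the 6 CM mice at 127.1 CPM, a gap of 0.632 of the range against a critical value of 0.625. For the mean of miR-221-5p over months 1 to 6, CM mouse 3334 was at 136.9 CPM and the next of 7 mice at 119.1 CPM, a gap of 0.572 against 0.568.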

How the results depend on the processing

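Of 576 member values under alternatives, 528 kept their direction and side of the threshold, 36 changed sign, 4 lost and 8 gained a call, and the number of called members moved in 10 of 144 cases. Signs turned mostly for values near 0, and the cause was not tested. At month 0, miR-221-3p was -0.0050 with no filter, -0.066 with sex, -0.11 without mice 3334 and 3335, -0.091 with the deposited CPM and -0.036 with recovered reads, and miR-222-5p was -0.046, -0.033, -0.18, -0.058 and -0.057 under the same settings, -0.020 with DESeq2 and -0.010 with the G number. At month 1, miR-221-3p was -0.13 and miR-221-5p -0.070 with raw library sizes, and miR-221-3p was -0.0057 with the deposited CPM and -0.051 with the G number. At month 2, miR-221-5p was -0.024 without mice 3334 and 3335 and -0.034 with the G number. At month 3, miR-222-3p was 0.019 with raw library sizes, 0.012 with sex, 0.21 with the deposited CPM and 0.31 with recovered reads. At month 5, miR-221-5p was -0.025 with the G number. The interaction of miR-222-5p was 0.020 without mice 3334 and 3335, and the last library differed from month 0 by 0.032 for miR-221-5p without mouse 3334. The mouse mean difference of miR-222-3p was 0.26 with the deposited CPM and 0.055 without the last CM libraries.

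The percentage of miRNAs called moved as follows. At month 0 it was 0.837% with DESeq2, and 0.0% with no filter, without mice 3334 and 3335, with the deposited CPM, with recovered reads and with the G number. At month 1, 1 member was called with recovered reads. At month 2 it was 21.5% with DESeq2, 22.2% with recovered reads, 2.63% with no filter and 5.15% with the G number, and at month 3 it was 7.61% with the G number. At month 4 it was 4.86% with DESeq2, 0.833% with no filter, 0.0% with sex, 1.46% without mice 3334 and 3335, 2.11% with recovered reads and 6.26% with the G number. At month 5 it was 4.24% with DESeq2, 10.4% without mice 3334 and 3335 and 0.736% with the G number, and at month 6 it was 1.84% with the G number. The Ctrl change from month 0 to month 1 gave 0.0% without mice 3334 and 3335. Slopes over all months gave 21.4% and 1 member (miR-222-3p, -0.13, adjusted p = 0.0392, exact permutation test). Over mouse means, 3 members were called without mice 3334 and 3335 (among 202 of 612 miRNAs), and 0 with the deposited CPM, with no filter, over months 1 to 4 and without the last CM libraries.

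Leaving out 1 mouse at a time, month 5 gave 0.0% to 7.51% of miRNAs called (7.51% without Ctrl mouse 3335, 0.781% without CM mouse 3368), with miR-221-3p at -0.13 to 0.038 and miR-221-5p at -0.020 to 0.16. The last library against month 0 gave 0 to 2 members (2 without mouse 3368), with miR-221-5p at -0.59 to 0.032, and mouse means gave 1 to 2 (2 without mouse 3334 or mouse 3335). With the mouse as a replicate block, pairing libraries of the same animal, 3.43% of miRNAs were called for the CM change from month 0 to month 1, 0.0% for the Ctrl change and 4.04% for the interaction. The block changed no call of a member. Of 18 ratio results under alternatives 13 were kept. The 3p ratio was 0.058 at validation point 5. The ratio of the arms of miR-221 no longer passed without the last CM libraries (-0.16) or at point 5 (-0.24), nor did that of miR-222 without mice 3334 and 3335 (0.25) or at point 5 (0.12). MiR-222-5p had as few as 13 counts, which limits its precision.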

Other observations

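In the deposited CPM the correlation between the 3p forms over all training libraries was 0.75, against 0.89 in the counts, whereas that between the arms of miR-221 was 0.90 in both tables. Over all training libraries, r of the summed progenitor level was 0.52 with miR-221-5p, 0.51 with miR-222-5p, 0.39 with miR-221-3p and 0.19 with miR-222-3p. For the vessel wall sum it was 0.38, 0.40, 0.52 and 0.51 in the same order, higher than the progenitor sum for both 3p forms. For the erythroid sum it was 0.17, -0.05, 0.23 and 0.47.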
